A study of Mus musculus with 2 samples.

Results

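The HoxA cluster stretch is the 150 kb of mouse chromosome 6 from 52.07 to 52.22 Mb (build mm8) that holds the HoxA genes. Its members were chosen by position alone: all 750 windows of 200 bp in it, of 12852483 in the genome, with windows missing from the deposited lists counted as 0 reads. At least 1 read lay in 368 of these windows in WT and in 352 in Lsh_KO, and 261 windows were empty in both. The windows were also summed into 75 bins of 2 kb, of 1285240 in the genome. Trimethylation of lysine 4 of histone H3 (H3K4me3) was profiled by chromatin immunoprecipitation and sequencing in a Lsh+/+ (WT) and a Lsh-/- (Lsh_KO) line of mouse embryonic fibroblasts, with 1 library each. Lsh (gene Hells) belongs to the SNF2 family of chromatin remodellers, and cells without it fail to methylate their DNA normally. Both lines were grown in the same serum-supplemented medium without a treatment, and the body region, the age of the embryos and the number of clones behind each line are not stated in the labels. With 1 line and 1 library per genotype no test of the genotype was possible, and loss of Lsh cannot be told apart from any other difference between the lines.

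HoxA genes encode homeodomain transcription factors that specify position along the head-to-tail axis and, for the posterior genes of the cluster, along the limb. The genes stand in the order of the body regions in which they act, with Hoxa13 at the posterior end, and fibroblasts in culture keep a Hox pattern that reflects the body site they came from. H3K4me3 is placed at promoters by Set1 and MLL (Kmt2) complexes. In active Hox clusters it extends beyond the start sites over genes and the DNA between them, while silent Hox genes carry the Polycomb mark H3K27me3.

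Promoter sequences were taken from RefSeq (GRCm38.p6, 250 bases before to 50 after a start site) and placed in mm8 where deposited reads carried the same 25 bases. This placed 16 promoters of 15 genes in the stretch, 10 of them promoters of 9 Hoxa genes, and 59 of 59 matching reads gave the same place for their promoter. Here 6 are printed because the contrasts described below turn on them. They are Hoxa2 (chr6:52094365-52094664, minus strand) and the long noncoding RNA gene 5730596B20Rik (chr6:52106488-52106787, plus strand), whose surroundings were lower in Lsh_KO. Next come Hoxa5 (chr6:52134121-52134420, minus strand), which was called in neither direction, and Hoxa3 (chr6:52142601-52142900, minus strand), which was higher. The last ones are Hoxa9 (chr6:52156904-52157203, minus strand) and the upstream start of Hoxa10 (chr6:52170388-52170687, minus strand), near which separate marked regions stood in Lsh_KO. All are written 5′ to 3′ on the strand of the gene, with CpG dinucleotides, the sites of DNA methylation, in capitals.
Hoxa2: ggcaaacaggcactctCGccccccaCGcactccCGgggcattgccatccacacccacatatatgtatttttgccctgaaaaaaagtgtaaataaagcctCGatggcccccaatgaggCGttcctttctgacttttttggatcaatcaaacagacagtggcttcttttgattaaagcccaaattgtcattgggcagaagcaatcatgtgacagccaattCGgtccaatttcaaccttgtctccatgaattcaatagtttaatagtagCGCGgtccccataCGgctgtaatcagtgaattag
5730596B20Rik: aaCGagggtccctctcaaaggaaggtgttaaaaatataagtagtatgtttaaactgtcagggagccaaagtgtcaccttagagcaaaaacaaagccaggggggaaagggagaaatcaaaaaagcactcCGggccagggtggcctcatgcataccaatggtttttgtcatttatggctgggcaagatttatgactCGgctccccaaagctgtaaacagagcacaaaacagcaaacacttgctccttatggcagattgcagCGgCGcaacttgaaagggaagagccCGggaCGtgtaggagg
Hoxa5: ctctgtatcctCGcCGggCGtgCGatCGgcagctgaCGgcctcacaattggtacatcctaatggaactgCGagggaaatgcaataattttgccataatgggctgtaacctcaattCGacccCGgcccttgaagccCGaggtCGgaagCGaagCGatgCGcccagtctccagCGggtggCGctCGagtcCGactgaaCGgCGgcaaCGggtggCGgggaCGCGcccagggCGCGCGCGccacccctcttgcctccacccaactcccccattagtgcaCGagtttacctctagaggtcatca
Hoxa3: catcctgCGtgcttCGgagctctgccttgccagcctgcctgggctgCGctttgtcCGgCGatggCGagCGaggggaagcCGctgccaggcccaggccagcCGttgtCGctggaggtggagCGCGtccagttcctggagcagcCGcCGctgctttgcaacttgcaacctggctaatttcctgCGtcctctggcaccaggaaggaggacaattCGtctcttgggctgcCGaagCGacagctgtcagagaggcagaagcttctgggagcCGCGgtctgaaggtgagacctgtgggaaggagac
Hoxa9: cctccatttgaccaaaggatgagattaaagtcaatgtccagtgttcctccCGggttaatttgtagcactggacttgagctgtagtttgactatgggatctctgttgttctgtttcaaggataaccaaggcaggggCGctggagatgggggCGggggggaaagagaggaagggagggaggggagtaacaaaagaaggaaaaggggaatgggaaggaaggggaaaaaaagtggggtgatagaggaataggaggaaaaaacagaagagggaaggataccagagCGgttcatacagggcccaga
Hoxa10, upstream start: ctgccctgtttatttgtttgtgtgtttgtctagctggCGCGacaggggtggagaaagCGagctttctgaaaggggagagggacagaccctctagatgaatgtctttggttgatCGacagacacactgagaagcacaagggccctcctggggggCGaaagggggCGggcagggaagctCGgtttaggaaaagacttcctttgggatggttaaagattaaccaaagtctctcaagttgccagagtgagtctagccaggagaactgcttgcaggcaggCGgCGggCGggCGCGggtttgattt

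CpG content varied widely among these promoters. Observed over expected CpG was 1.02 in Hoxa5, 0.66 in Hoxa3, 0.60 at the upstream start of Hoxa10, 0.59 in Hoxa2, 0.41 in 5730596B20Rik and 0.28 in Hoxa9, and the median of all 32851 promoters of the table was 0.38. Of the placed promoters of the stretch, Hoxa11os and Gm15050 had the highest values, 1.11 and 1.03. Both promoters called higher thus had a larger ratio than both called lower, with Hoxa2 and the upstream start of Hoxa10 close together, and 2 promoters in each direction are too few to compare. A search of both strands covered 4 words. GGGCGG, the core of the Sp1 site, occurred in 5 of 16 promoters of the stretch and in 35.7% of all promoters. The promoters of Hoxa9 and Gm52902 overlap on opposite strands, and their match is the same site counted in both. CCAAT occurred in 9 of 16 and in 37.4%, and TATAAA in 3 of 16 and in 13.6%. TGATTNAT, a word bound by Pbx and Hox pairs, occurred in 1 of 16 promoters, that of Hoxa2, and in 3.22% of all.

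A further set of sequences was read from the deposited reads, since the strongest contrasts lay partly outside the printed promoters. Each is a run covered without a gap by reads that match the reference without a mismatch, written on the plus strand with CpG in capitals. Runs from the 2 broad lower loci are chr6:52093182-52093338 and chr6:52107457-52107575. Runs from bins higher in Lsh_KO are chr6:52142001-52142111, from the Hoxa3 bin, and chr6:52169687-52169750, from the bin downstream of the upper Hoxa10 start. The run chr6:52104856-52105079 lies between both lower loci in a bin called in neither direction.
Lower locus around Hoxa2: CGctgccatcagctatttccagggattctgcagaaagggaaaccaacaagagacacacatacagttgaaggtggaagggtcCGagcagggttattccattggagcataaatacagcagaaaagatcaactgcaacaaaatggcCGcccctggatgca
Lower locus at 5730596B20Rik: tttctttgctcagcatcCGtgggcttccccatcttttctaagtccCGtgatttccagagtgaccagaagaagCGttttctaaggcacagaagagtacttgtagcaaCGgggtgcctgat
Higher bin at Hoxa3: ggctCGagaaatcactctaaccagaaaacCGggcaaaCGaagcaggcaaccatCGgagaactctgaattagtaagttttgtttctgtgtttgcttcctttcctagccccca
Higher bin near Hoxa10: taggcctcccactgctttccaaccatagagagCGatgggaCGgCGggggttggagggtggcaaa
Bin between the lower loci: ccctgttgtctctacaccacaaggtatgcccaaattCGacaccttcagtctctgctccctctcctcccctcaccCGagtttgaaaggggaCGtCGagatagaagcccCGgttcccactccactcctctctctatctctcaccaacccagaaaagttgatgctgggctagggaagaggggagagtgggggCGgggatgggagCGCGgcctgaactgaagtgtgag

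Depth and identity of the libraries bear on all values below. The deposited windows held 4070117 reads in WT and 4550293 in Lsh_KO, of which 1596 and 1819 lay in the stretch, 0.0392% and 0.04%. Of the fibroblast markers, 6 of 12 had a placed promoter, and 6 of these 6 were marked in WT and 5 in Lsh_KO, by the criterion given below for bins. Col1a2 held 96 WT and 22 Lsh_KO reads and S100a4 31 and 3, whereas Col3a1 held 47 and 133. These 3 have the interval bound farthest from 1. Of the 6 tested, 1 was higher and 2 were lower, against 2.69% and 5.3% of all tested promoters, and the rest were called in neither direction. Their median log2 ratio was 0.11. None of the 4 placed promoters of pluripotency, blood and muscle markers was marked in either line. Of the 3 placed neural markers, Neurod1 held 17 and 5 reads, Olig2 17 and 6 and Sox2 8 and 6, and the endothelial marker Kdr held 59 and 104. The epithelial marker Krt18 held 3 WT and 85 Lsh_KO reads and Epcam 28 and 34. The part of such cell-type differences in the HoxA values was not tested. The Hells promoter held 171 and 224 reads, a scaled ratio of 0.98. The labels do not say which part of the gene is deleted in the Lsh_KO line, so this does not check the genotype.

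Ratios of Lsh_KO to WT were divided by 1.33, the median ratio of the 25598 bins marked in both lines across the genome. A ratio of 1 is therefore that of a typical marked bin. The scale is 0.42 in log2 units, where the ratio of total reads is 0.16. Intervals are exact conditional (Clopper-Pearson) 95% intervals. They take in counting error alone, and since PCR copies carried no molecular identifier, reads cannot be taken as independent molecules. Over the whole stretch, scaled reads were 1.17-fold lower in Lsh_KO than in WT (interval 1.09 to 1.25), a log2 ratio of -0.23. Scaled by total reads instead, the log2 ratio was 0.03 (-0.07 to 0.13), so the direction for the stretch as a whole depended on the scaling. The main scale comes from marked bins, while the sum also takes in sparse ones. The 45 bins too sparse to be tested below held 219 WT and 203 Lsh_KO reads, under a ratio of 1 after scaling. Of 241 well-marked stretches of 150 kb compared with the main scale, 36.5% had a lower log2 ratio than this one. Their median was -0.15, so the value of the whole stretch was not unusual. Background reads in the 5 Mb around the stretch were more frequent in Lsh_KO, with a log2 ratio of 0.27 (0.22 to 0.32) relative to the background of the genome. Over the whole of chromosome 6 this ratio was 0.25, so it is not particular to the surroundings of the stretch. With the 5 Mb ratio in the scaling the stretch stood at -0.50.

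The small difference of the whole stretch was made of opposite differences along the cluster. Split into 5 blocks of 30 kb from the anterior end, the first held 561 reads in WT and 516 in Lsh_KO, 1.45-fold lower (1.28 to 1.64). The second held 493 and 438 reads, 1.5-fold lower (1.32 to 1.71). The third, which holds Hoxa5, Hoxa6, Hoxa7, Hoxa9 and the placed start of Hoxa3, held 288 and 570 reads and was 1.48-fold higher (1.29 to 1.72). The fourth, from Hoxa10 to Hoxa11, held 163 and 196 reads, a ratio of 0.90 (0.73 to 1.12), and the fifth, with Hoxa13 and Hottip, held 91 and 99, a ratio of 0.82 (0.61 to 1.10). In the last 2 blocks the interval included 1, though not with the 5 Mb background in the scaling. The third block took 18.0% of the reads of the stretch in WT (16.2 to 20.0) and 31.3% in Lsh_KO (29.2 to 33.5), a comparison within each library that uses no scaling. The first 2 blocks took 35.2% and 30.9% in WT, more than their 28.4% and 24.1% in Lsh_KO, so the mark lay farther toward the middle of the cluster in Lsh_KO.

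**Figure D1:**
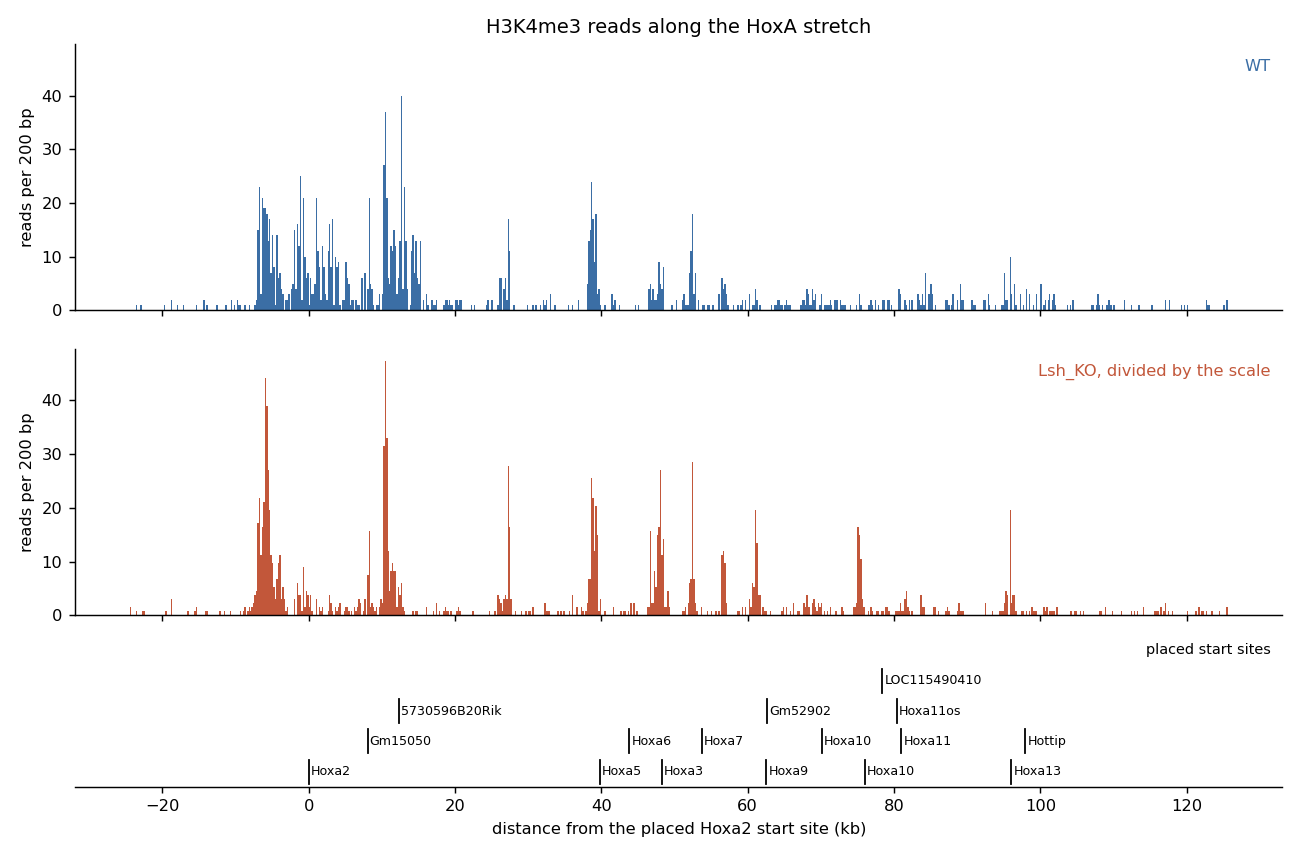
Deposited reads per 200 bp window (vertical axis) along the HoxA stretch in WT and in Lsh_KO, the latter divided by the scale of 1.33. The horizontal axis is the distance in kb from the placed Hoxa2 start site, with placed start sites in the lowest panel. Reads gather in separate peaks. Counted before scaling, the 8 kb around the Hoxa2 start hold 317 WT and 89 Lsh_KO reads. The tallest Lsh_KO window of the Hoxa3 region holds 36 reads against at most 9 in WT, also before scaling.

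A bin counted as marked when it held 10 reads or more and reached 5 times the background mean, which was 1.97 reads in WT and 1.90 in Lsh_KO. In the stretch 34 of 75 bins were marked in WT and 30 in Lsh_KO, against 3.33% and 3.27% of all bins of the genome. Of these, 25 were marked in both, 9 only in WT and 5 only in Lsh_KO. The limit of 10 reads is not adjusted for depth. With the deeper library thinned, 34 bins were marked in WT and 25 in Lsh_KO. The cluster was thus densely marked in both lines. A bin was tested with at least 20 reads in both libraries together and a mark in at least 1, and was called higher or lower with a ratio of at least 2-fold and an interval excluding 1. Of 30 tested bins, 3 were higher in Lsh_KO, 10.0%, against 4.66% of the 33590 tested bins of the genome. Another 8 were lower, 26.7%, against 10.4%, and 19 were called in neither direction. Both shares stood above those of the genome, but they rest on few calls, and most of the lower bins adjoin one another. The median log2 ratio of the tested bins was -0.19, against -0.02 in the genome. The 45 bins not tested held at most 12 WT and 11 Lsh_KO reads each.

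The spread of the ratios, which does not depend on the scaling, was wide. Over the 25 bins marked in both lines the SD of the log2 ratio was 1.24, against 0.59 over such bins in the rest of the genome, where the central 90% ran from -1.05 to 0.84. Neighbouring bins share fragments and are not independent of one another.

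**Figure D2:**
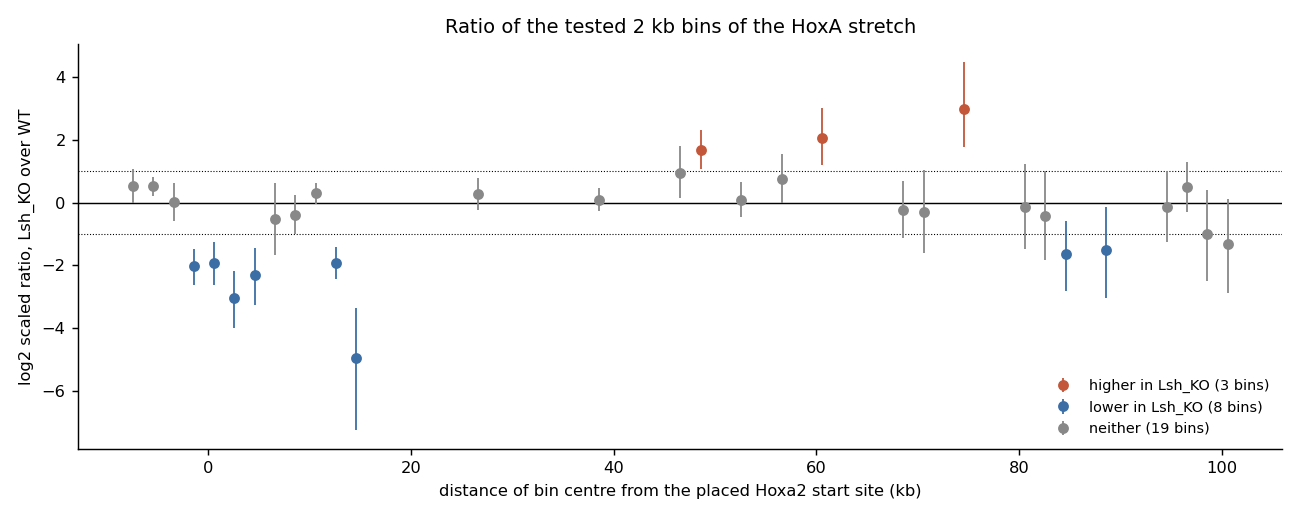
Log2 scaled ratio of Lsh_KO over WT (vertical axis, 95% counting intervals as bars) for the 30 tested 2 kb bins, against the distance in kb of the bin centre from the placed Hoxa2 start site. The 8 lower bins form 2 groups around and upstream of Hoxa2 plus 2 single bins farther on, and the 3 higher bins lie apart from one another.

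The largest lower locus covered Hoxa2, which specifies the second pharyngeal arch and the hindbrain segments that feed it. Its 4 neighbouring bins, from 52092001 to 52100000, held 114, 71, 80 and 52 reads in WT and 37, 25, 13 and 14 in Lsh_KO. The locus was drawn by joining neighbouring bins called lower, so every one of these bins was lower by construction. Together they held 317 and 89 reads, 4.75-fold lower in Lsh_KO (3.74 to 6.08), and after scaling 37 of the 40 windows were higher in WT. The joined ratio, its interval and the window count do not allow for this choice of bins. The tallest window held 25 reads in WT and 12 in Lsh_KO. Marked regions were drawn by joining windows of 6 reads or more that lay within 1 kb of each other. The region here was 7400 bp wide, from 52092401 to 52099800, and held the placed Hoxa2 start site at 52094414. Within it, windows of at least 6 reads before scaling covered 4600 bp in WT and 600 bp in Lsh_KO. Both lines had their tallest window of the region downstream of the start, 1.11 kb in WT and 0.71 kb in Lsh_KO.

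At the Hoxa2 promoter itself, 85 WT reads and 38 Lsh_KO reads lay in the 2.2 kb around the start site, 2.98-fold lower (2.01 to 4.49). The 5 windows on the upstream side held 38 and 10 reads and those on the downstream side 46 and 26. The window with the start site held 1 and 2 reads, a dip between flanks in both lines. The contrast was smaller close to the start: with 2 windows on each side it was 23 and 19 reads, a log2 ratio of -0.69 with an interval that includes 0 (-1.65 to 0.25). In the RefSeq gene order, Hoxaas2 lies upstream of Hoxa2, but it has no promoter in the table and was not placed.

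The second lower locus lay at 5730596B20Rik, a long noncoding RNA gene transcribed on the strand opposite to the Hoxa genes. Its 2 bins, from 52106001 to 52110000, held 133 and 70 reads in WT and 47 and 3 in Lsh_KO. Together they were 5.41-fold lower in Lsh_KO (3.96 to 7.53). They too were joined because both were called lower, and the ratio and its interval do not allow for that choice. The second of these bins had the largest contrast of the stretch, 31.1-fold (10.2 to 154), with an interval widened by its 3 Lsh_KO reads. That bin was marked in WT alone, so it was tested only through the line in which it is higher. The placed start site of the gene is at 52106738. Around it 152 WT reads and 71 Lsh_KO reads lay in 2.2 kb, 2.85-fold lower (2.14 to 3.84), and the sides differed: upstream held 53 and 48 reads, downstream 93 and 16. The contrast therefore lay mainly on the transcribed side.

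Between the 2 lower loci, 6 kb from 52100001 to 52106000 held 184 WT and 263 Lsh_KO reads, a ratio of 1.07 (0.89 to 1.30). This segment holds Gm15050, another noncoding RNA gene, with 48 and 47 reads around its start at 52102464, and the bin from 52104001, with 125 and 204 reads. Within the marked region around 5730596B20Rik, from 52104601 to 52109800, the tallest window was 0.36 kb downstream of the 5730596B20Rik start in WT, with 40 reads, and 1.84 kb upstream of it in Lsh_KO, with 63.

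Hoxa5, which patterns the cervical and thoracic skeleton and the lung, was the best covered Hoxa promoter in WT after Hoxa2. The 2.2 kb around its start at 52134170 held 77 WT and 132 Lsh_KO reads, a ratio of 1.29 (0.96 to 1.73). Nearly all of them, 71 and 126, lay on the downstream side, and the tallest window stood 1.0 kb downstream in both lines. The interval included 1, and the marked region there, with 99 and 144 reads, had a ratio of 1.09 (0.84 to 1.42). Hoxa4, its anterior neighbour, has no entry in the promoter table. An unplaced marked region from 52120401 to 52122000 lies 12.2 kb downstream of the Hoxa5 start, with 52 and 80 reads (ratio 1.15, 0.80 to 1.67) and its tallest window at the same place in both lines.

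Hoxa3, required for the third pharyngeal arch and the thymus and parathyroid that form from it, had the first of the higher bins. The start site in the table is at 52142650, upstream of Hoxa6, and the RefSeq span of the gene takes in Hoxa4, Hoxa5 and Hoxa6. The lower locus at 5730596B20Rik, from 52106001 to 52110000, is on the downstream side of this minus-strand start. The end of Hoxa3 was not placed, so whether that locus lies inside the gene was not settled here. The values that follow concern the start site alone. The bin of the start site, from 52142001 to 52144000, had 29 reads in WT and 124 in Lsh_KO, 3.21-fold higher (2.13 to 4.99). Around the start site 33 and 142 reads were found, 3.23-fold higher (2.2 to 4.87), with 8 and 31 upstream and 21 and 96 downstream. The marked region, 2600 bp wide, held 44 and 167 reads. Its windows of at least 6 reads before scaling covered 400 bp in WT and 1800 bp in Lsh_KO. Hoxa6, downstream of it, had 1 and 10 reads around its start at 52138255, too few to be tested.

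Hoxa7 and Hoxa9 act in the trunk, and Hoxa9 is also expressed in blood progenitors. Around the Hoxa7 start at 52148156 lay 16 reads in each line, while the marked region 0.76 kb downstream of it held 46 and 67, a ratio of 1.09 (0.74 to 1.63). Upstream of Hoxa7, 15 WT reads and 44 Lsh_KO reads lay in a region of 600 bp from 52150801, 2.2-fold higher (1.2 to 4.26). Its 2 kb bin held 22 and 49 reads and was not called, so this contrast depended on the borders of the region. The next higher bin, from 52154001 to 52156000, had 13 reads in WT and 72 in Lsh_KO, 4.15-fold higher (2.28 to 8.18). The marked region inside it was 800 bp wide, held 8 and 59 reads and lay 1.15 kb downstream of the Hoxa9 start at 52156953. The region was drawn from Lsh_KO windows alone, and its tallest window held 4 reads in WT and 26 in Lsh_KO. The 2.2 kb around the Hoxa9 start held only 2 and 15 reads and were not tested. They overlap those of Gm52902, a noncoding RNA gene that starts close by on the other strand, with 3 and 10.

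Hoxa10, a gene of the uterus, the hindlimb and the lumbar vertebrae, has 2 placed start sites, and their intervals did not overlap. At the upstream one, at 52170437, 9 reads were found in WT and 66 in Lsh_KO, 5.50-fold higher (2.73 to 12.6), with 5 and 4 on the upstream side and 4 and 62 on the downstream side. Only 1 and 7 of them lay within 2 windows of the start, too few to be tested there. At the other, at 52164522, the counts were 13 and 17, a ratio of 0.98 (0.45 to 2.2). The higher bin from 52168001 to 52170000 had 6 reads in WT and 63 in Lsh_KO, 7.88-fold higher (3.42 to 22.3). Its marked region was 600 bp wide, 0.44 kb downstream of the upstream start, with 4 and 56 reads. Its borders come from Lsh_KO windows alone, so its difference is part of how it was drawn. The bin has fixed borders, but the bin and the promoter at the upstream start were marked in Lsh_KO alone. Both were thus tested only through the line in which they are higher.

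**Figure D3:**
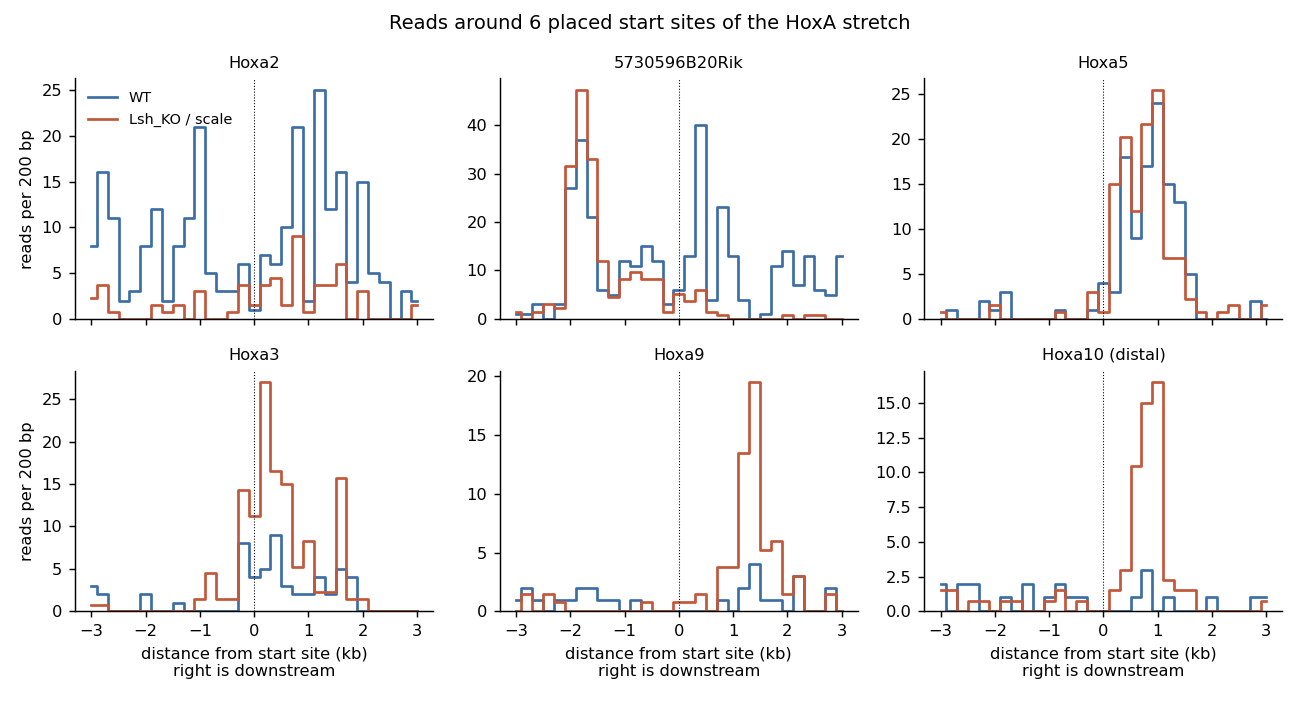
Reads per 200 bp (vertical axes, Lsh_KO divided by the scale of 1.33) against distance in kb from 6 placed start sites, with the transcribed side to the right and the start site as a dotted line. Lsh_KO lies below WT along Hoxa2 and downstream of 5730596B20Rik, and above it downstream of Hoxa3, Hoxa9 and the upstream start of Hoxa10.

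Toward the posterior end the mark was weak. Hoxa11, which patterns the forearm and lower leg, held 10 and 20 reads (ratio 1.5, 0.67 to 3.59), its antisense gene Hoxa11os 10 and 12, and the noncoding gene LOC115490410 11 and 9. Hoxa13, the gene of the digits and the urogenital outlet, held 30 and 54 reads around its start at 52190458, a ratio of 1.35 (0.85 to 2.19), with 10 reads in the tallest window in WT and 26 in Lsh_KO, at the same place. Hottip, a noncoding RNA gene next to it that is known for its role in keeping posterior HoxA genes active, held 11 and 6 reads. None of these was called. The 2 remaining lower bins lay between Hoxa11 and Hoxa13 with no placed start site. From 52178001 the counts were 26 and 11, 3.15-fold lower (1.5 to 7.07), and from 52182001 they were 15 and 7, 2.86-fold lower (1.10 to 8.28). The second of these rests on few reads and was marked, and so tested, through WT alone. It was called again in 3 of 14 alternative settings, and the first in 9 of 14. The other 9 called bins were called again in 13 or all 14.

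Of the 12 placed promoters of the stretch that could be tested, 2 were higher in Lsh_KO (Hoxa3 and the upstream start of Hoxa10), against 2.69% of 12916 placed promoters tested genome-wide, and 2 were lower (Hoxa2 and 5730596B20Rik), against 5.3%. With only 12 promoters, each single call weighs heavily in such a share. The upstream start of Hoxa10 was marked, and so tested, through Lsh_KO alone. Among the 12 marked regions, 4 were higher, against 4.77% of 12944 in the genome, and 1 was lower, against 5.51%. Of the 4 higher ones, 2 were drawn from Lsh_KO windows alone (those near Hoxa9 and the upstream start of Hoxa10) and had to differ, so this count supports nothing about the stretch. The single lower region was that of Hoxa2: the region of 5730596B20Rik also holds the bin with more reads in Lsh_KO and was 1.75-fold lower (1.48 to 2.08) as a whole. Windows with at least 6 reads covered 16000 bp of the stretch in WT and 13600 bp in Lsh_KO. Across the genome the order was the opposite, 14.3 Mb in WT and 17.3 Mb in Lsh_KO. These extents, like those of single regions, use a fixed limit of 6 unscaled reads, and the Lsh_KO library is the deeper one. The part of depth in them was not tested, so they do not show a wider mark in Lsh_KO across the genome. Mira and Evx1 have an entry in the promoter table but no matching read, and Hoxaas3 has no entry.

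**Figure D4:**
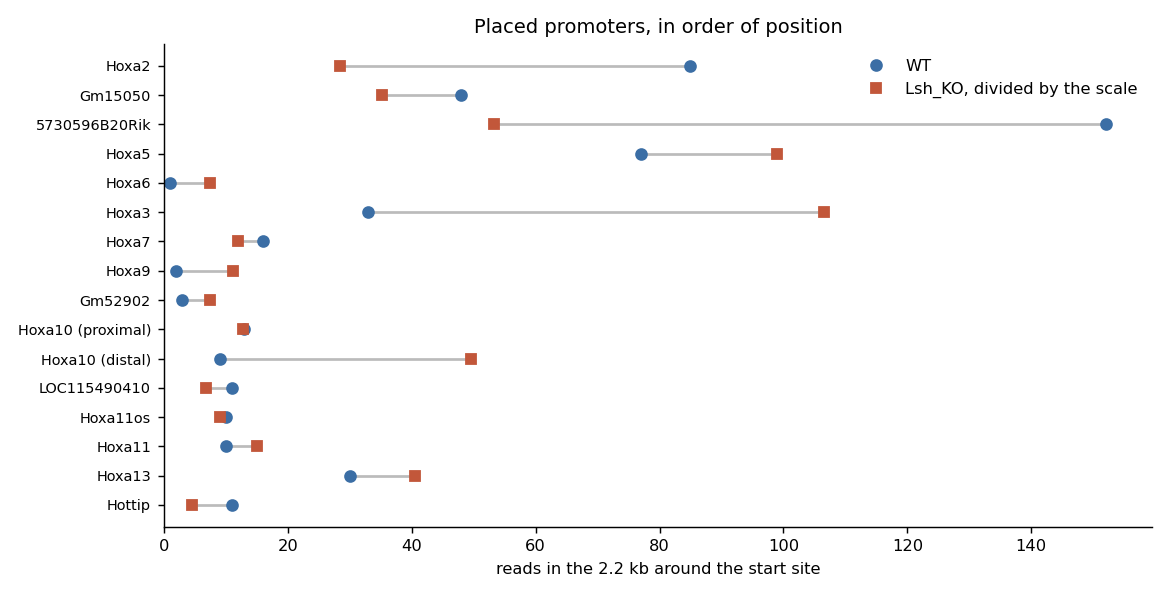
Reads in the 2.2 kb around each of the 16 placed start sites (horizontal axis), in order of position, as circles for WT and squares for Lsh_KO divided by the scale of 1.33. Hoxa2 and 5730596B20Rik have the WT circle to the right, and Hoxa3 and the upstream start of Hoxa10 have the Lsh_KO square to the right.

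The reads behind these bins were examined in 2 sets. The deposited read lists gave 962 distinct reads of the stretch in WT and 1017 in Lsh_KO, and the window lists held 634 and 802 further reads, of unstated origin. Both sets carry the same sample labels, so they repeat the sequencing at most and not the culture, and the bins were called on their sum. All 11 called bins had the same direction in both sets. In the read lists alone 10 of the 11 passed the rule again, where 3.45% of tested bins of the genome were higher and 5.8% lower, and in the further reads 9 did, where 3.73% were higher and 4.99% lower. For the Hoxa2 locus the contrast was 5.29-fold lower in the read lists (3.87 to 7.36) and 4.87-fold in the further reads (3.36 to 7.24). For the 5730596B20Rik locus it was 5.84-fold (3.83 to 9.17) and 5.25-fold (3.31 to 8.62), and for the Hoxa3 bin 3.01-fold and 3.11-fold higher.

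**Figure D5:**
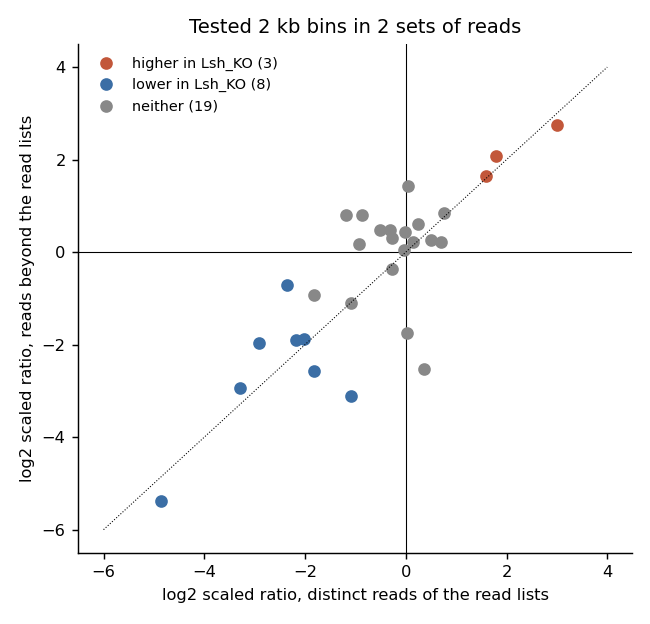
Log2 scaled ratio of Lsh_KO over WT of tested 2 kb bins in the reads of the read lists (horizontal axis) and in the reads beyond those lists (vertical axis), with the line of equality dotted. The bins called higher lie above 0 and those called lower lie below 0 in both sets.

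Strand, base composition and mismatches were compared between the kinds of bins. Plus-strand reads of the 2 broad lower loci numbered 160 in WT and 52 in Lsh_KO, 4.42-fold lower (3.22 to 6.17), and minus-strand reads 145 and 27, 7.67-fold lower (5.06 to 12). In the 3 higher bins, plus-strand reads were 3.15-fold higher (1.95 to 5.32) and minus-strand reads 4.67-fold higher (2.30 to 10.7). The direction was the same on both strands, though the bins were called on counts that include these reads, which favours such agreement. Reads from the lower loci had a GC content of 53.2% in WT, those of the higher bins 55.0% in Lsh_KO and those of the bins called in neither direction 59.5% in WT. Observed over expected CpG of the same 3 sets was 0.45, 0.55 and 0.59 in WT and 0.42, 0.63 and 0.60 in Lsh_KO. Over all reads it was 0.39 in WT and 0.43 in Lsh_KO. The WT value of the higher bins rests on 30 reads. The lower loci were therefore the CpG-poorest of these sets in both lines, and the order of the other sets differed between the lines. Mismatches occurred in 14.8% of the WT reads of the lower loci (11.0 to 19.2) and in 16.5% of the Lsh_KO reads (9.06 to 26.5), near the 15.6% and 15.2% of all reads. Repeats of a position and strand made up 14.7% of the WT reads and 23.5% of the Lsh_KO reads of the stretch (13.9% and 18.6% genome-wide) and were counted once in the read lists.

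The other Hox clusters and the genes that act with Hox proteins were read in the same way. Of 28 HoxB, HoxC and HoxD genes, 10 had a placed promoter, and 7 promoters could be tested. Hoxd3, the paralogue of Hoxa3, was higher, with 17 and 63 reads, 1 start of Hoxd11 was lower, with 24 and 7, and the other 5 were called in neither direction. Over all tested promoters 2.69% were higher and 5.3% lower, and 7 promoters are too few to set against these shares. Of 26 Hox cofactors and chromatin regulators, such as the Pbx and Meis partners, MLL and Polycomb subunits and Ctcf, 17 were placed and tested. None was higher (2.69% of all tested promoters were) and 1 was lower (5.3% were), which is near the share over all promoters. The lower one was Cbx7, a Polycomb subunit, with 33 and 8 reads, a ratio of 0.18. Meis1, a DNA-binding partner of Hox proteins, held 103 and 263 reads, a ratio of 1.92 (1.52 to 2.43) and below the 2-fold limit. The median log2 ratio of the cofactors and regulators was 0.00, against 0.11 over all 12916 tested promoters.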

How the data were processed

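H3K4me3 was profiled in 1 WT and 1 Lsh_KO library; per the labels' protocols, chromatin of 20000000 cells per line was digested with micrococcal nuclease, precipitated, amplified over 20 cycles and selected at 200 to 400 bp. Positions are on mm8, per the submitters' processing notes, while no aligner is named there or in the labels. The authors deposited whole-number read counts per 200 bp window, which were the main measure, and lists of 25-base reads with an alignment score. The deposited score ran from 4 to 53 and was not used as a filter. A test on the lists found 0 windows with a count below that of the distinct reads moved 100 bp from their leftmost base. No normalisation of the deposited counts was found.

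Windows were summed into bins, blocks, marked regions (at least 20 reads) and promoters (11 windows around a start site). For the alternative counts, 1 read per position and strand was kept and moved 75 bp. Promoter sequences (RefSeq, GRCm38.p6) were placed by 25-base words found at 1 place in the table, overlapping promoters sharing a place. A promoter was kept where at least 80% of matching reads gave the same place, which held for 18871 of 32851. No position was converted between builds. A place assumes the same spacing in both builds between the matched words and the start site. All genes placed in the stretch are named, and 1 item of the stretch is not reported here. Of other lists at most 3 genes are, those with the interval bound farthest from 1. The members and lists were chosen with earlier results of these data known. Alternatives covered scaling, read set, read shift, bin size and offset, minimum counts, fold, depth and promoter extent. Software was scipy 1.17.1, pandas 2.3.3 and numpy 2.4.6 under Python 3.11.15, with matplotlib 3.10.9 for plots.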

Additional observations from a re-analysis of the deposited data

How the results depend on the processing

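No paired analysis was possible because each group has 1 library and the labels give no replicate numbers, and no replicate could be left out. The log2 ratio of the whole stretch was -0.23. It turned to 0.03 when scaled by total reads, and the cause lies in the scale alone, 1.12 in place of 1.33. It was -0.37 scaled by marked bins of chromosome 6, -0.50 with the 5 Mb background, -0.43 with distinct reads, moved or not, and -0.36 with repeats kept. Settings added after the data were seen gave -0.46 without mismatched reads, -0.37 on plus-strand and -0.51 on minus-strand reads. The number of marked bins fell with shallower or wider counts. In WT it was 22 with distinct reads, moved or not, 16 with the further reads, 18 in 5 kb bins, 19 with at least 20 reads, 19 without mismatched reads, and 15 and 14 on the plus and minus strand. In Lsh_KO it was 17 with the further reads, 17 in 5 kb bins, 18 with at least 20 reads, 19 without mismatched reads, and 16 and 14 by strand. With the deeper library thinned, the number was 25 in Lsh_KO and stayed at 34 in WT. Lower bins numbered 4 in 5 kb bins and 4 on plus-strand reads, and 1 bin was higher on minus-strand reads. Lower regions numbered 2 with at least 10 reads per window and 3 with gaps of up to 400 bp. With 2 windows on each side of a start site, 6 promoters could be tested, with Hoxa3 higher and 5730596B20Rik lower, Hoxa2 was at -0.69 and not called, and the upstream Hoxa10 start, with 1 and 7 reads, was not tested. Hoxa7 and Hoxa11os, with few reads, went to -1.52 and -2.52 in the further reads. For the blocks, other settings were added after the data were seen. With total reads, the 5 Mb background and distinct reads, in this order, the first block stood at -0.28, -0.81 and -0.78, the second at -0.33, -0.86 and -0.81, and the third at 0.82, 0.30 and 0.36. With the 5 Mb background the fourth stood at -0.42 (-0.73 to -0.11) and the fifth at -0.57 (-0.99 to -0.14). Their intervals included 0 in the other settings. No called bin was called the other way in any of the 14 settings that use the same bins. No input library was used here, and promoters with few reads were not resolved at this depth.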
